A study of Mus musculus with 11 samples.

Results

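Mcts1, Nt5c3, Copz2 and Gabrr1 are 4 genes picked because their liver RNA read higher in mice on a high-fat diet than in control mice, and higher still in mice that fasted after that diet. The members were thus chosen by the group means of measured ratios. They were found by gene symbol in the table that pairs the array's spots with genes, and they hold 5 of its 17280 spots: 1 each for Mcts1, Copz2 and Gabrr1, and 2 for Nt5c3. Spots with a single symbol cover 13406 genes in all. The choice used these same arrays, so the differences between groups are described for the members and not tested. Compared with control, the 4 members were 2.35-fold to 6.13-fold higher on the high-fat diet and 3.17-fold to 12.57-fold higher after the fast, at the spot of each gene that was filled on 9 or 10 arrays. The second Nt5c3 spot, filled on 5 arrays, did not have the rising order.

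All livers came from C57/BL/6J mice kept for 10 weeks on 1 of the diets. Controls ate a chow with 6.5% fat (9 mice in the study group). The high-fat group was given feed with 42.16% fat (5 mice). The fasted group was given the same feed and was then left without food for the final 48 h (4 mice). Chow and high-fat feed also differed in carbohydrate (49% and 42.81%), protein (23% and 15.02%) and energy (3.5 and 4.53 kcal per g). Differences with the diet are thus not those of fat alone. Whether each percentage is of weight or of energy was not established, so the fat values may not be on the same scale. Each array holds the RNA of 1 mouse, labelled with Cy5, against a commercial reference RNA pooled from mouse sources, labelled with Cy3. There are 4 control, 4 high-fat and 3 fasted arrays, and high-fat array 4 was left out. Fasted mice differ from controls by both the diet and the fast. No group of mice fasted after chow was analysed here.

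The 4 genes belong to separate processes. Mcts1 encodes a partner of Denr, and the pair helps to clear used small ribosomal subunits and lets ribosomes start again downstream of short upstream reading frames. Nt5c3 encodes a cytosolic nucleotidase that removes the phosphate from pyrimidine nucleotides, best known from red cells, where its loss causes anaemia. Copz2 encodes a zeta subunit of the COPI coat, which forms vesicles that carry proteins from the Golgi back to the endoplasmic reticulum, and Gabrr1 encodes the rho subunit of a chloride channel gated by the transmitter GABA, best known from the retina.

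Because the 4 genes were picked for moving together across the groups, the 250 bases before each of their RefSeq starts (build GRCm38.p6) are shown, 5′ to 3′ on the strand of the gene. Capitals mark matches on either strand to any of 7 motifs. The core promoter motifs searched were the box near the start of many regulated genes that reads TATAAA, the upstream box bound by the factor NF-Y that reads CCAAT, and the GC box bound by Sp factors that reads GGGCGG. The others were the E-box of basic helix-loop-helix factors that reads CACGTG, the full cyclic AMP response element that reads TGACGTCA, the shorter form of that element that reads TGACG and lies within every full one, and the single site of nuclear receptors such as HNF4 and PPAR that reads AGGTCA.
Mcts1 at chrX:38600221-38600470 on the plus strand: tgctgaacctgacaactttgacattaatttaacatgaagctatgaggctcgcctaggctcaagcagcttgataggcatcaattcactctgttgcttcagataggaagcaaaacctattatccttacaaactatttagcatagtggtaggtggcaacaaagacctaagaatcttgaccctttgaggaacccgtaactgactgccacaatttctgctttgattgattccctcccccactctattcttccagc
Mcts1 second start at chrX:38601009-38601258 on the plus strand: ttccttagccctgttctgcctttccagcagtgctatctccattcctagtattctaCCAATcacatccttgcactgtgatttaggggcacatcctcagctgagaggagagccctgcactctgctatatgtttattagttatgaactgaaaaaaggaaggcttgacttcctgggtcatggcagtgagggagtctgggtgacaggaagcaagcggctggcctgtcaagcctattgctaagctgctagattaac
Nt5c3 at chr6:56901887-56902136 on the minus strand: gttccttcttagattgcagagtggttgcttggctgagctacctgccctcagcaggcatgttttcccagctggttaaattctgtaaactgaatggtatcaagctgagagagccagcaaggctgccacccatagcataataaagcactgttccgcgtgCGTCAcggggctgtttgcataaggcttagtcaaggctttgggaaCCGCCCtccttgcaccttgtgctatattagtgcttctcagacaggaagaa
Copz2 at chr11:96849626-96849875 on the plus strand: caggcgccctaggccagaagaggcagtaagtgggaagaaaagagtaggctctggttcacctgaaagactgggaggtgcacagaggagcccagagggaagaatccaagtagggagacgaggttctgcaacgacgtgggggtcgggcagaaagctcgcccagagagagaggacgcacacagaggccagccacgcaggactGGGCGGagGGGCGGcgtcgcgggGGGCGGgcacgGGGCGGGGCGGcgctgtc
Gabrr1 at chr4:33132306-33132555 on the plus strand: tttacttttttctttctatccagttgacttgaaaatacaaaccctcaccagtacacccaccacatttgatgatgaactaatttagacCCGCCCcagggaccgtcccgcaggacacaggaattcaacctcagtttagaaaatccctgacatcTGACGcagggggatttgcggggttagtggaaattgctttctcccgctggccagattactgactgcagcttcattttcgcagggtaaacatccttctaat

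No motif of the search was shared by all 4 genes in these windows. The GC box was found before Nt5c3 (1 match), Gabrr1 (1 match) and Copz2 (5 matches, of which the last 2 overlap), and 32.7% of the 32851 promoter windows of that table hold at least 1. The short cyclic AMP element was found once before Nt5c3 and once before Gabrr1, against 17.8% of all windows, and the CCAAT box once before the second Mcts1 start, against 33.8%. The TATA box, the E-box, the full cyclic AMP element and the nuclear receptor site, present in 12.4%, 6.02%, 1.55% and 14.0% of windows, had no match before any member. The Copz2 window was the richest in G and C at 66.0%, and the windows of Mcts1 (42.8% and 48.4%), Gabrr1 (46.0%) and Nt5c3 (50.0%) lay below the median of all windows, 52.4%. A match is a run of letters and not a measured binding site.

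Levels are given as log2 of liver over reference RNA, with the median of each array set to 0, so 1 unit is a 2-fold difference. Of the 17280 spots, 3864 to 5567 per array held a value on the 10 arrays used, and these arrays correlated with each other at r between 0.69 and 0.94. High-fat array 4 correlated with the others at r between -0.03 and 0.01, so whether its spots carry the right gene names is in doubt. A spot was tested if at least 2 arrays of every group held a value, which left 3606. The spread of the ratios, as the median absolute deviation of an array, was smaller on the high-fat arrays (0.26 to 0.39) than on the control (0.43 to 0.52) and fasted arrays (0.44 to 0.49). Of 10 hepatocyte markers 8 were tested, and their mean level lay between 1.88 and 2.78 on the control arrays, 1.44 and 1.79 on the high-fat arrays and 1.48 and 1.69 on the fasted arrays, above the array median on every one.

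Mcts1, the re-initiation factor, covered the widest range of the 4. Its spot 4275 read 0.30, 2.14, 1.32 and 2.34 on control arrays 1 to 4. On the diet it was empty on array 1 and read 4.76 and 3.52 on arrays 2 and 3, and after the fast it read 5.22, 5.57 and 4.74 on arrays 1 to 3. Both high-fat arrays lay above every control array, by at least 1.18, and the lowest fasted array lay 0.02 below the highest high-fat array. The group means were 1.53 ± 0.93 (SD, n = 4), 4.14 ± 0.88 (n = 2) and 5.18 ± 0.42 (n = 3), a difference of 2.62 with the diet (6.13-fold) and of 1.04 with the fast (2.05-fold). By rank within an array, which no centring or scaling of the array can alter, Mcts1 lay between 28 and 1224 from the top on the control arrays and between 2 and 6 on the high-fat and fasted arrays. The step between high-fat and fasted livers is not seen in these ranks, which were 5 and 5 on the diet and 3, 2 and 6 after the fast. Ranks this near the top leave little room to show a further rise, so they do not decide whether there was one.

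Nt5c3, the pyrimidine nucleotidase, is the member with 2 spots. Spot 4813 read 0.49, 0.33, 0.42 and 0.90 in the controls, 1.03, 3.05 and 1.41 on the diet, and 2.42, 2.64 and 2.64 after the fast. The 3 fasted arrays lay close together, and high-fat array 2 lay above all 3 of them, while high-fat arrays 1 and 3 lay between the controls and the fasted arrays. The means were 0.54 ± 0.25 (SD, n = 4), 1.83 ± 1.07 (n = 3) and 2.57 ± 0.13 (n = 3), so the difference was 1.30 with the diet (2.45-fold) and 0.74 with the fast (1.67-fold).

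Spot 9251 of Nt5c3 held a value on 5 of the 10 arrays: 0.53 on control array 2, 0.56 on control array 4, -0.07 on high-fat array 2, 1.85 on fasted array 1 and 3.23 on fasted array 2. Its fasted values lay above its controls, as at the other spot, but its only high-fat value lay below both controls. On high-fat array 2 the 2 spots of the gene read 3.05 and -0.07, the widest disagreement between them. Averaging the spots on each array set high-fat array 2 at 1.49, which brought the high-fat mean to 1.31 ± 0.25 (SD, n = 3) against 0.52 ± 0.15 (n = 4) and 2.57 ± 0.40 (n = 3), with no overlap between any of the groups. The stepwise separation of Nt5c3 as an average of spots therefore rests on the value of -0.07 on that 1 array.

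Copz2, the COPI coat subunit, lay near the top of the arrays already in control livers. Spot 4306 read 3.03, 3.80, 2.38 and 3.56 in the controls, 4.45, 5.45 and 3.88 on the diet, and 5.23, 4.85 and 6.09 after the fast. The lowest high-fat array lay 0.08 above the highest control array, and high-fat array 2 lay above 2 of the 3 fasted arrays. The means were 3.19 ± 0.63 (SD, n = 4), 4.59 ± 0.79 (n = 3) and 5.39 ± 0.64 (n = 3), a difference of 1.40 with the diet (2.64-fold) and of 0.80 with the fast (1.74-fold). The spot ranked 1, 2 and 4 from the top on the high-fat arrays and 2, 5 and 1 on the fasted arrays, and ranked 8, 7, 47 and 4 on the controls. A ratio against the reference is not an abundance, so these ranks say that liver exceeded the reference more for Copz2 than for nearly all other filled spots, not that Copz2 RNA was abundant. Copz2 was also the 1 member with a value on high-fat array 4, where it read 0.69, at rank 752 from the top.

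Gabrr1, the GABA receptor subunit, had the smallest differences. Spot 10924 read -0.07, -0.03, 0.26 and 0.68 in the controls, 1.01, 1.97 and 1.34 on the diet, and 1.99, 2.24 and 1.40 after the fast. All high-fat arrays lay above the controls, by at least 0.33, while fasted array 3 fell within the range of the high-fat arrays. The means were 0.21 ± 0.35 (SD, n = 4), 1.44 ± 0.49 (n = 3) and 1.88 ± 0.43 (n = 3), a difference of 1.23 with the diet (2.35-fold) and of 0.44 with the fast (1.35-fold). In control livers Gabrr1 sat near the middle of its array, in the top 54.3%, 50.9%, 36.7% and 16.7% of filled spots, and on the high-fat and fasted arrays in the top 1.12% to 5.48%. In bulk liver, a change in the number of cells of a type and a change in RNA per cell cannot be told apart for this or any other member.

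**Figure D1:**
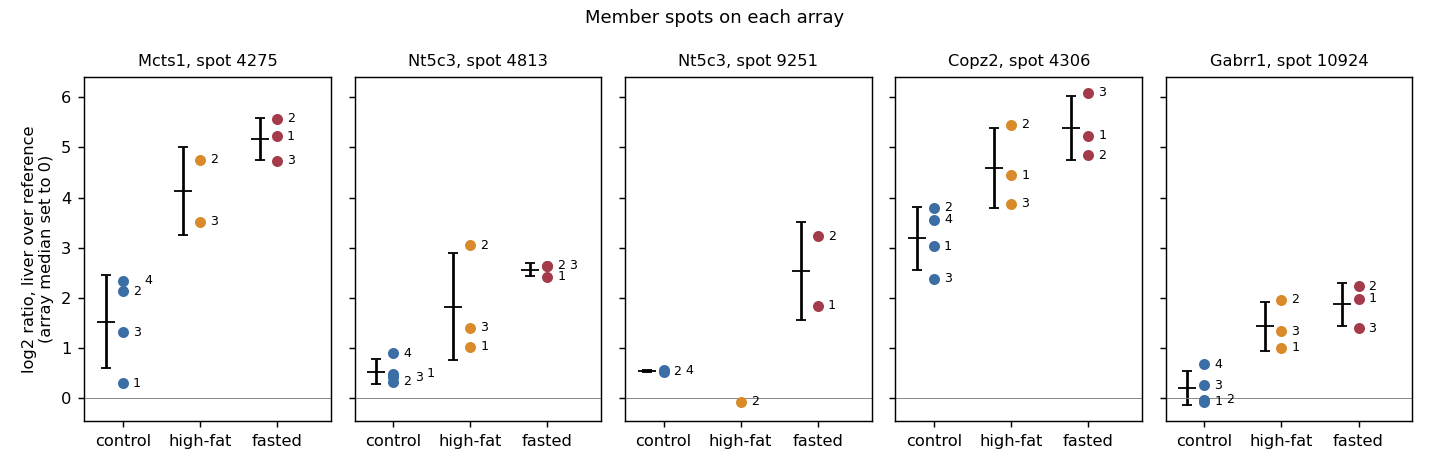
Log2 ratio of liver over reference (vertical axis, array median set to 0) at each of the 5 spots, by group. Points are single arrays with their replicate number, and bars beside them give the mean and SD. At the 4 spots filled on 9 or 10 arrays every high-fat and fasted point lies above every control point. High-fat array 2 is the highest of its group there and reaches into the fasted range, or above it at Nt5c3.

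In the values that picked the members, their diet step separated the arrays and their fasting step did not. At all 4 spots filled on 9 or 10 arrays no high-fat array overlapped a control array, which was the case with high-fat higher for 16.8% of the 3606 tested spots. No fasted array overlapped a control at these 4 spots, against 12.6% of tested spots with fasted higher. Fasted and high-fat arrays overlapped at all 4, whereas 11.2% of tested spots had no overlap with fasted higher. Group means in the order control, high-fat, fasted were found for 18.3% of tested spots, and 0.582% (21 spots) rose with no overlap at either step, none of them a member. Since the members were picked for this order, nothing is read from these counts about them. The medians over all tested spots were 0.08 with the diet and -0.05 with the fast, far smaller than the members' steps. Ranked by the smaller of the 2 steps, Mcts1 was 2, Copz2 7, Nt5c3 8 and Gabrr1 27 of 3606. These sizes and ranks follow from how the members were picked, and nothing is read from them either.

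**Figure D2:**
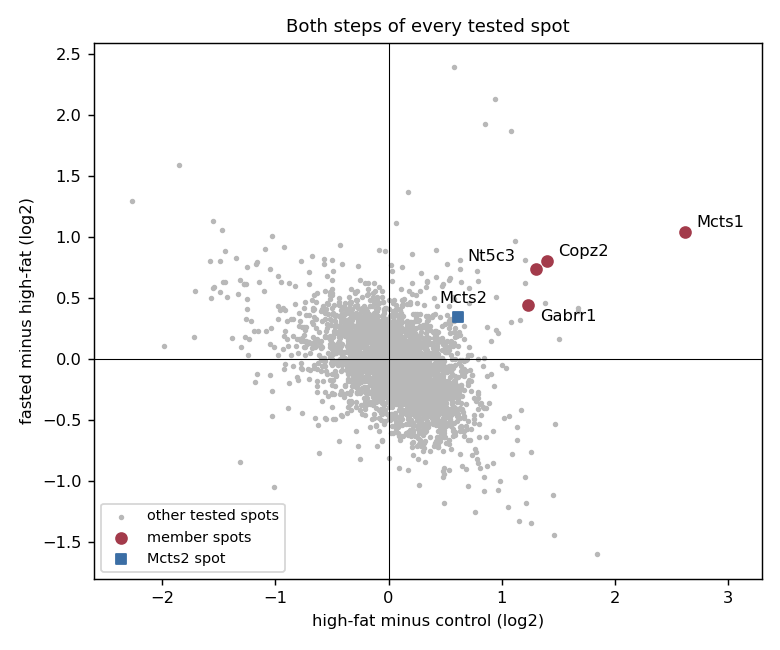
Fasted minus high-fat (vertical axis) against high-fat minus control (horizontal axis), both as log2 differences of group means, for all 3606 tested spots (grey). The 4 tested member spots (red) lie where both differences are above 0, with Mcts1 farthest out at 2.62 and 1.04, and the Mcts2 spot (blue square) lies there too, at 0.61 and 0.34.

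Of the high-fat arrays only array 2 overlapped the fasted arrays. It was the highest high-fat array at all 4 spots, of only 2 filled at Mcts1, and without it the high-fat means were 3.52 (n = 1) for Mcts1, 1.22 ± 0.27 (SD, n = 2) for Nt5c3, 4.17 ± 0.40 (n = 2) for Copz2 and 1.18 ± 0.23 (n = 2) for Gabrr1. The fasting steps then came to 1.66, 1.35, 1.23 and 0.70, and the diet steps to 2.00, 0.69, 0.97 and 0.97. Fasted and high-fat arrays no longer overlapped at any of the 4, with gaps of 1.22, 1.01, 0.40 and 0.06. Leaving out the highest array of the high-fat group can only raise the fasting step, so these values show which high-fat array overlapped and nothing more. At Mcts1 and Gabrr1 only fasted array 3 lay below high-fat array 2, at 4.74 against 4.76 and 1.40 against 1.97. The overlap at these 2 spots thus rested on that fasted array as much as on high-fat array 2. Over the 2983 spots filled on all 3 high-fat arrays, which leave out Mcts1, array 2 was the highest of the 3 at 35.7%, and at 44.0% of the 570 among them whose group means rose in order. The cause was not tested.

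The fasting step also depended on how the arrays were put on 1 scale. With every array scaled to a common median absolute deviation, fasted minus high-fat was 0.09 for Mcts1, 0.10 for Nt5c3, -1.03 for Copz2 and -0.07 for Gabrr1. With quantile normalisation it was 0.46, 0.48, -0.10 and 0.15, and with the values as deposited 1.19, 0.94, 1.00 and 0.64. High-fat minus control stayed above 1 in all of these settings, at 3.32, 1.76, 3.05 and 1.61 after scaling, 2.65, 1.51, 1.45 and 1.55 after quantile normalisation and 2.65, 1.27, 1.38 and 1.21 as deposited. For Copz2, whose gap to the controls was only 0.08, high-fat and control arrays overlapped after quantile normalisation and after centring on the spots filled on all 10 arrays, and fasted and control arrays overlapped after quantile normalisation. At these 4 spots the high-fat and fasted means lay above the control mean under each scaling, while fasted lay below high-fat for Copz2 and Gabrr1 after scaling and for Copz2 with quantile normalisation. For Mcts1 and Nt5c3 the fasting step stayed above 0 but shrank to 0.09 and 0.10. The direction of these shifts after scaling follows from the array spreads, 0.26 to 0.39 on the high-fat and 0.44 to 0.49 on the fasted arrays. At a spot far above the median, scaling raises the diet step and lowers the fasting step, so the larger diet steps are not separate support. High-fat array 1 had the smallest spread (0.26), so scaling raised its values most, such as the 4.45 of Copz2.

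**Figure D3:**
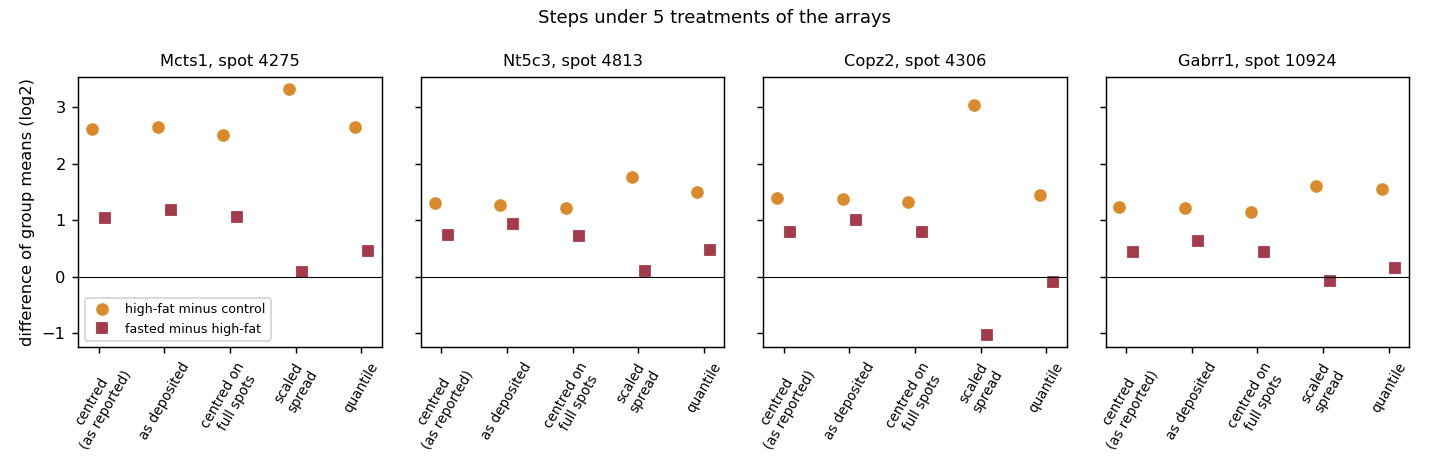
Log2 differences of group means for the 4 tested member spots under each scaling of the arrays, for high-fat minus control and for fasted minus high-fat. The diet step stays above 1 in every setting, and the fasting step falls to 0.09 and 0.10 for Mcts1 and Nt5c3 and to -1.03 and -0.07 for Copz2 and Gabrr1 when arrays are scaled to a common spread.

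**Figure D4:**
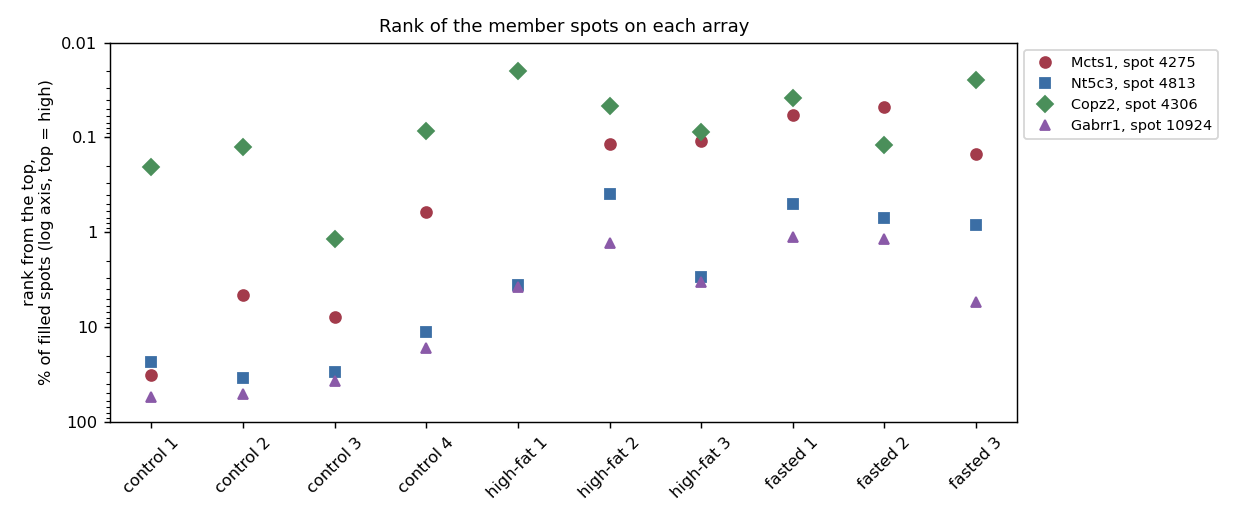
Rank of each tested member spot from the top of its array, in percent of the filled spots (vertical axis, log scale, top is high), for the 10 arrays used. Gabrr1 moves from the top 16.7% or below on the control arrays to the top 1.31% to 3.79% on the high-fat arrays, Mcts1 and Nt5c3 move up likewise, and Copz2 is near the top throughout.

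Deviations from the group means, which the choice of the members did not use, showed no relation between members that passed the test. For the 6 pairs of member spots Pearson's r over 9 or 10 arrays lay between 0.04 and 0.71. The highest were Nt5c3 with Gabrr1 (r = 0.71, rho = 0.52, exact permutation within groups, two-sided p = 0.0324, adjusted p = 0.194 over 6 pairs) and Mcts1 with Gabrr1 (r = 0.71, rho = 0.80, exact permutation p = 0.0694, adjusted p = 0.208). Without the 2 arrays farthest from the median of the first spot, r was 0.89 for Nt5c3 with Gabrr1 and 0.85 for Mcts1 with Gabrr1. Neither passed (exact permutation p = 0.0417, adjusted p = 0.125 for each), and the few arrays left limit how small p can be. Without high-fat array 2, both r values were lower, at 0.55 and 0.63. The deviations of Copz2 showed little relation to those of Gabrr1 (r = 0.04, rho = 0.01, exact permutation p = 0.936), and its r with Nt5c3 went from 0.56 to -0.06 without the 2 farthest arrays, high-fat 2 and fasted 3.

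The spots whose values most resembled each member were found by Pearson's r over at least 8 shared arrays, which all share the 3 groups and the reference, so r here mostly follows the group means and is a description. For Mcts1, compared with 2726 spots, they were Rnf5, a ubiquitin ligase of the endoplasmic reticulum (r = 0.98, 9 arrays), Ppme1, a phosphatase methylesterase (0.97, 8 arrays), and Lpar6, a lysophosphatidic acid receptor (0.97, 9 arrays). Rnf5 differed by 0.61 with the diet and 0.34 with the fast, and Lpar6 by 0.31 and 0.00, so a like pattern over arrays came with far smaller steps. For Nt5c3, compared with 3072 spots on 10 arrays, they were Maco1, the membrane protein macoilin (0.97), the zinc finger gene Zfp618 (0.96) and Uck2 (0.95). Maco1 followed Nt5c3 in size as well, with steps of 1.20 and 0.81, and Uck2, a kinase that phosphorylates uridine and cytidine and so acts opposite to the nucleotidase, had steps of 0.56 and 0.33.

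For Copz2 the most alike were the cytokine gene Il13 (r = 0.96, 9 arrays), Ccdc124, a ribosome-associated protein (0.95), and the protocadherin Pcdhb16 (0.95). Ccdc124 differed by 1.16 with the diet and 0.32 with the fast, and Il13 by only 0.20 and 0.22. For Gabrr1 they were the glycosyltransferase Galnt7 (0.96), Mcts1 (0.95, 9 arrays) and the growth factor Fgf5 (0.95). Among the members themselves r lay between 0.77 for Copz2 with Gabrr1 and 0.95 for Mcts1 with Gabrr1.

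Close relatives of the members were measured at some spots. Mcts2, a retrogene copy of Mcts1, read 0.21, 0.53, 0.28 and 1.13 in the controls, 0.72, 1.22 and 1.50 on the diet and 1.40, 1.76 and 1.31 after the fast at its spot 11577. Its means rose in the order of the members, from 0.54 ± 0.42 (SD, n = 4) through 1.15 ± 0.40 (n = 3) to 1.49 ± 0.24 (n = 3), at much smaller size than Mcts1. This order turned after scaling to a common spread, where the means were 1.42 on the diet and 1.38 after the fast (-0.04), and the step was 0.06 with quantile normalisation. Fasted minus control was 0.95 ± 0.24 (SE, limma, Benjamini-Hochberg adjusted p = 0.0477, with fasted higher than every control on all 3 arrays), in a comparison where 2.55% of all tested spots rose and 1.28% fell. The call was lost in 10 alternatives, among them leaving out any 1 of fasted arrays 1, 2 and 3, with adjusted p from 0.0113 to 0.245. High-fat minus control (0.61 ± 0.24, adjusted p = 0.137) and fasted minus high-fat (0.34 ± 0.25, adjusted p = 0.531) did not pass. Mcts1 and Mcts2 are close in sequence, and the probe sequences are not used here, so signal from one at the spot of the other cannot be told apart from its own.

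Copz1, the other zeta subunit, did not share the pattern of Copz2. Its means were -0.94 ± 0.28 (SD, n = 4), -0.91 ± 0.48 (n = 3) and -1.52 ± 0.22 (n = 3), with differences of 0.04 with the diet (limma adjusted p = 0.939) and -0.61 with the fast (adjusted p = 0.270). Nt5c3b (2 spots) and Gabrr2 (1 spot) held no value on any array used, which does not show that the genes were silent, and no spot listed for Gabrr3 was found.

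Genes of translation initiation, the process of Mcts1, went in both directions. Of 14 tested spots of 10 genes, 1 rose and 5 fell with the diet, where 3.16% of all tested spots rose and 2.11% fell. None passed with the fast, where 0.0555% rose and 0.277% fell (limma, 6 of the 14 at an unadjusted p under 0.05, against 14.9% of all tested spots). Between control and fasted livers 2 rose and 5 fell, where 2.55% of all tested spots rose and 1.28% fell. All 5 falls with the diet were spots of Eif4a2, an RNA helicase of the cap-binding complex, by 1.25 to 1.55 on the log2 scale; at spot 5620 it went from 1.85 ± 0.21 (SD, n = 4) to 0.57 ± 0.04 (n = 3; limma adjusted p = 0.00127) and read 1.18 ± 0.14 (n = 3) after the fast. The diet falls were lost at spot 8320 with quantile normalisation, and at spot 6445 with quantile normalisation, after scaling and without high-fat array 2 or 3. Spots of 1 gene are not separate evidence, and 12 other Eif4a2 spots were too sparsely filled to test. Of the 17 spots listed for Eif4a2, 16 recur at intervals of 60 in the spot number, 4 of the 5 tested ones among them. They may be control spots of the array, in which case their values need not be those of Eif4a2 RNA. The rise was Eif2ak4, the amino acid sensing kinase GCN2, from -1.43 ± 0.25 (n = 4) to -0.34 ± 0.41 (n = 3), a difference of 1.09 ± 0.20 (SE, adjusted p = 0.0145), which did not pass without high-fat array 2 or with scaled arrays (adjusted p up to 0.130). Between control and fasted livers Mcts2 and Eif6, a factor that keeps ribosomal subunits apart, rose, the latter by 0.64 ± 0.13 (adjusted p = 0.0268), and Eif2b1, a subunit of the exchange factor of eIF2, fell by 0.75 ± 0.16 (adjusted p = 0.0297) along with 4 Eif4a2 spots. All of these calls were lost without fasted array 1, without fasted array 2 and after scaling to a common spread. The Eif6 call was lost in 5 alternatives in all, also without control array 1 and with centring on fully filled spots. The Eif2b1 call was lost in 9, also without control array 3 or 4, as deposited, with quantile normalisation, with all 11 arrays and with the replicate number as a block (-0.66). The Eif4a2 calls were lost in 13 alternatives at spot 6160, 11 at spot 7780, 7 at spot 5620 and 4 at spot 8320, quantile normalisation among them at each. The medians of the list were -0.26 with the diet, 0.19 with the fast and -0.27 in all, beside 0.08, -0.05 and 0.01 for all tested spots. The 5 Eif4a2 spots weigh on these medians, so no shift of the other genes is read from them. Means in the rising order were found at 2 of its 14 spots, against 18.3% of all tested spots.

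The other gene groups around the members held no spot that passed limma's test in any comparison after adjustment. Of pyrimidine nucleotide metabolism 9 spots were tested, with 1, 2 and 2 of them at an unadjusted p under 0.05 with the diet, with the fast and between control and fasted livers. Over all tested spots these shares were 25.5%, 14.9% and 20.7%, against which the counts of each list here are to be read. Means in rising order were found at 1, against 18.3% of all tested spots. It was Uck2, at 0.64 ± 0.17 (SD, n = 4), 1.20 ± 0.89 (n = 3) and 1.53 ± 0.16 (n = 3), with fasted minus control at 0.88 (limma adjusted p = 0.131). Nt5m, the mitochondrial nucleotidase, was 0.55 higher with the diet (adjusted p = 0.0700), and Nt5e, the nucleotidase of the cell surface, was 0.51 higher with the fast (adjusted p = 0.157). Of the COPI and COPII coats and their cargo receptors 16 spots of 15 genes were tested, with medians of 0.04 with the diet and -0.27 with the fast, and with 4, 2 and 1 at an unadjusted p under 0.05 in the same order of comparisons. Sec23b, of the COPII inner coat, was 0.50 higher with the diet (adjusted p = 0.0826) and 0.64 lower with the fast (-0.64, adjusted p = 0.108), and Tmed4, a cargo receptor, was 1.13 higher with the diet (adjusted p = 0.0826). Of GABA and glycine receptors and GABA handling 7 spots were tested, with 1 at an unadjusted p under 0.05 with the diet and 0 in the other comparisons. The receptor subunit Gabra2 differed by -0.35 with the diet (adjusted p = 0.172) and the GABA-making enzyme Gad2 by 0.29 (adjusted p = 0.324).

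Genes known to answer to fasting and dietary fat gave little to compare with. Only 5 of the 29 spots of that list were tested, and none passed in any comparison (limma, with 1, 2 and 1 at an unadjusted p under 0.05, against 25.5%, 14.9% and 20.7% of all tested spots). The desaturase Scd1, known to fall in fasted liver, read 2.16 ± 0.35 (SD, n = 3) on the diet and 1.25 ± 0.14 (n = 2) after the fast (limma adjusted p = 0.232), and the peroxisomal enzyme Ehhadh differed by -0.88 with the diet (adjusted p = 0.168).

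Markers of cell types were thinly measured. All 8 tested hepatocyte markers were lower in both high-fat groups than in control, with medians of -0.60 with the diet and -0.63 between control and fasted, beside 0.08 and 0.01 for all tested spots. Of these, Apoa1 fell by 1.01 with the diet (limma adjusted p = 0.0456, from 0.0305 to 0.244 over the alternatives, lost in 11 of them) and Ttr fell by 1.38 between control and fasted livers (adjusted p = 0.0198, lost without fasted array 1, without fasted array 2, after scaling and with all 11 arrays). Compared with control, the members were higher and these markers lower in both groups. With the fast, 5 of the 8 markers were higher and 3 lower, at a median of 0.11 beside -0.05 for all tested spots. The part of cell composition in the members' values was not tested. The endothelial receptor gene Kdr, the only tested marker of its kind, had means of 0.21 ± 0.24 (n = 4), 0.61 ± 0.14 (n = 3) and 1.11 ± 0.13 (n = 3) with no overlap at either step, and rose by 0.90 ± 0.15 between control and fasted livers (SE, adjusted p = 0.0192, lost without fasted array 1, without fasted array 2 and with all 11 arrays, up to 0.212). Single markers of macrophages (C1qc), stellate cells (Acta2) and bile ducts (Sox9) and both tested lymphocyte markers (Cd3e and Ptprc) did not pass. Of the neuron and retina markers, the setting where Gabrr1 is best known, 7 spots held 1 with any value, and the 3 adipocyte spots and the 1 red cell spot held none.

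Other genes rose with no overlap between arrays at either step, which the members did not. Besides Kdr, the largest of these by the smaller step were Ccdc28a (means -0.08, 0.50 and 0.98), Fndc1 (-0.02, 0.37 and 0.73), Acbd6, a binder of long-chain acyl-CoA (-0.31, 0.14 and 0.48), and Ndufaf5, an assembly factor of respiratory complex I (-0.17, 0.21 and 0.55). Fasted minus control passed for each of the 4, at 1.06, 0.75, 0.79 and 0.72 (limma adjusted p from 0.0234 to 0.0326), where 2.55% of all tested spots rose. The 4 were picked for having no overlap on these same arrays, so their calls were favoured by the choice and are not separate support. Each of these calls was lost without fasted array 1, without fasted array 2 and after scaling of the arrays. The Fndc1 and Acbd6 calls were also lost without control array 1, that of Acbd6 without control array 2, and those of Ccdc28a, Acbd6 and Ndufaf5 with all 11 arrays. Their steps of 0.34 to 0.58 were smaller than those of Mcts1, Nt5c3 and Copz2.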

How the data were processed

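Liver RNA of 11 mice was measured on 2-colour arrays, and per the labels Cy5 marks liver and Cy3 the reference. The deposited values are logarithms of the liver to reference ratio and were read as log2. Not given in the sources used here are the base, the background correction, any normalisation of single arrays and why cells are empty. With another base every difference would change by the same factor. Signal over background is unknown because intensities were not used, and precision is limited by how few arrays there are.

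Of the spots, 14718 carry 1 symbol, 1 several and 2561 none. Gene identifiers of 14445 matched RefSeq's table (GRCm38.p6), all 5 member spots among them, and 0 symbols differed. Each array was centred on its median, high-fat array 4 was left out because the choice of members leaves it out, and spots were kept apart. The tested spots went into 1 linear model (limma 3.58.1, R 4.3.3) holding a mean for each group, with a common spread and empirical Bayes shrinkage. Calls were made at a two-sided p of 0.05 after Benjamini-Hochberg adjustment over the 3606 spots of a comparison. Residual degrees of freedom were 7 for a fully filled spot, with 5.09 prior degrees. Differences shown for members come from the group means.

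Named were every member spot, the 3 most alike spots of each, up to 4 called (otherwise up to 2 with the smallest p) of each gene or marker list, close paralogs, and the 5 largest rises with no overlap. Additional genes are marked as chosen after their values were seen. The members and lists were chosen with earlier results of these data known. Alternatives were other centring, common spread, quantile normalisation, spots averaged by gene, filled spots only, all 11 arrays, each array left out, and a replicate block. The model fit and the permutation test were tested on simulated data.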

Additional observations from a re-analysis of the deposited data

Results flagged for a closer look

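Nt5m, the mitochondrial nucleotidase in the list of pyrimidine nucleotide genes, read -0.49 on control array 4, while the other 3 control arrays lay between -0.73 and -0.70. The gap to the nearest of them was 0.875 of the range of the group, above Dixon's critical value for 4 arrays, which chance passes in about 1 of 20 groups. It was the 1 value to stand apart among 40 groups of 4 arrays checked.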

How the results depend on the processing

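The diet step of Mcts1, Nt5c3, Copz2 and Gabrr1 kept its sign under every alternative run. Copz2 moved from 1.40 to 3.05 after scaling of the arrays to the same spread, and to 0.43 with all 11 arrays. The fasting step fell after scaling to 0.09 for Mcts1 and 0.10 for Nt5c3, and reversed to -1.03 for Copz2 and -0.07 for Gabrr1. Copz2 also reversed to -0.10 with quantile normalisation and came to 1.77 with all 11 arrays. Thus 4 member spots stood in rising order, 2 after scaling and 3 with quantile normalisation. Leaving out 1 array at a time gave diet steps of 2.00 to 3.24, 0.69 to 1.70, 0.97 to 1.76 and 0.97 to 1.45 and fasting steps of 0.42 to 1.66, 0.34 to 1.35, 0.44 to 1.23 and 0.22 to 0.70, in the order Mcts1, Nt5c3, Copz2 and Gabrr1. The within-group r of Nt5c3 with Copz2 became -0.06 without the 2 farthest arrays, and that of Copz2 with Gabrr1 became -0.47 without high-fat array 2, an alternative chosen after seeing the data.

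Spots in rising order were 18.3%, and 34.4% as deposited. As deposited, the median change with the fast was 0.16, against -0.05. By limma, spots called with the diet were 190 (114 up, 76 down), 108 as deposited (44 and 64) and 124 with all 11 arrays. The split was 58 and 93 with centring on fully filled spots, 114 and 29 after scaling and 145 and 27 with quantile normalisation. With the fast 12 were called (2 up, 10 down), 15 as deposited (10 and 5) and 15 after scaling (0 and 15), 7 with centring on fully filled spots, 25 with quantile normalisation, 6 with filled spots only and 3 with all 11 arrays. Between control and fasted, 138 were called (92 up, 46 down), 238 as deposited (216 and 22), 24 after scaling (18 and 6), 38 with all 11 arrays, and 43 up and 55 down with centring on fully filled spots. Quantile normalisation gave 78 and 16.

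Leaving out 1 array gave 33 to 210, 3 to 30 and 0 to 168 calls. Diet calls fell to 33 without high-fat array 2, 47 without high-fat array 3, 117 without control array 3 and 124 without fasted array 1 or 2. Calls with the fast were 30 without control array 2 and 3 to 6 without any other single array. Control to fasted calls fell to 71, 84 and 82 without control array 1, control array 3 or fasted array 3, to 6 without fasted array 1 and, by limma, to 0 without fasted array 2, where 560 spots had an unadjusted p under 0.05. The causes were not tested.

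With the replicate number as a block, 145, 3 and 136 spots were called. Same-numbered arrays deviated together at r between -0.16 and 0.19 over 9 pairs, against -0.23 to 0.24 over 24 other pairs. No pairing by number was seen, though so few pairs cannot exclude a weak one.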

Other observations

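A few genes with larger smaller steps than most members, chosen after their values were seen, had wide spreads or overlaps. Arnt2, a partner of bHLH-PAS transcription factors, had the largest smaller step of all tested spots, with means of -0.22 ± 0.28 (SD, n = 2) in control, 0.87 ± 1.07 (n = 2) on the diet and 2.74 ± 1.40 (n = 3) after the fast. Psmd2, a proteasome subunit, had 0.84 ± 0.29 (n = 3), 1.96 ± 1.52 (n = 2) and 2.92 ± 0.86 (n = 3). Cct6b, a chaperonin subunit best known from testis, had -0.04 ± 0.26 (n = 3), 0.81 ± 0.86 (n = 3) and 2.74 ± 0.33 (n = 3), and rose by 2.77 ± 0.35 between control and fasted livers (SE, limma adjusted p = 0.00756), while fasted minus high-fat was 1.92 ± 0.35 (adjusted p = 0.0524). Between control and fasted livers 2.55% of all tested spots rose. No spot was called in that comparison without fasted array 2, so the Cct6b call was lost there. Cct6b was picked by these values, so its call is not separate support.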
